A study of Mus musculus with 29 samples.

Results

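Loss of the transcription factor IRF8 in lymphoid-primed multipotent progenitors (LMPP) was described here from acetylation of histone H3 at lysine 27 (H3K27ac), measured by chromatin immunoprecipitation and sequencing. The comparison used 4 of the 22 mouse libraries with called regions or peaks: 2 from wild-type (WT) and 2 from IRF8-deficient (IRF8KO) C57BL/6 mice. The bone marrow cells were enriched with magnetic beads and then sorted as lineage-negative, Sca-1+, CD117+, CD135+, CD150- and IL-7R-. All cells were primary, the allele behind the deficiency and the age of the animals are not given in the sources used here, and the labels speak of biological duplicates without saying whether they came from different animals. Spread between libraries may therefore be technical. Members were found by a rule: autosomal regions only, the 15000 widest of each library (60000 of 97268 deposited regions), merged where they overlapped by 1 base or more into 32853 regions. A merged region was lost when called in both WT and neither IRF8KO library (1305 regions, 3.97% of all), gained when called in both IRF8KO and neither WT library (180 regions, 0.548%), or shared when called in all 4 (5801 regions, 17.7%). The other 25567 regions had mixed calls. Further H3K27ac libraries entered a fit of gene levels and a lookup of the lost regions. They came from WT lineage-negative, Sca-1+, CD117+ (LSK) cells, WT splenic dendritic cells, and progenitors of mice without the +56 kb Irf8 enhancer (d+56kb).

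IRF8 is a member of the interferon regulatory factor family. It binds DNA mainly with partners, with other IRF proteins at interferon-stimulated response elements and with the ETS factor PU.1 at composite elements, and it is known for directing marrow progenitors to dendritic cells and monocytes and away from neutrophils. LMPP are early progenitors with lymphoid and myeloid potential, in which Irf8 begins to be expressed. H3K27ac marks active promoters and enhancers, so a called region reports an acetylated stretch and not the amount of RNA.

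The promoters below are examples from 9 where IRF8 binding, an IRF motif and a lost region occur near the same gene start. Each has a lost region within 1 kb of its start. Its printed window carries an IRF8 peak called in both libraries of classical type 1 dendritic cells (cDC1), and holds a match to an IRF motif. Whether the peak or the match lies inside the lost region was not tested. The motifs searched, on both strands, were the core of the interferon-stimulated response element, GAAA followed after 2 bases of any kind by a second GAAA, and the ETS-IRF composite element, GGAA followed after 2 bases of any kind by GAAA. Capitals mark the matches, and in Psme1 and Trim12c a match of each motif shared bases. Sequences are from RefSeq (GRCm38.p6), 250 bases before to 50 after the annotated start, in the direction of the gene. Adar (an RNA-editing enzyme) lies on the plus strand at chr3:89730468-89730767, Ddx60 (an interferon-induced helicase) on the plus strand at chr8:61927837-61928136, and Gbp7 (an interferon-induced GTPase) on the plus strand at chr3:142530086-142530385. Psme1 (a subunit of the proteasome activator PA28) lies on the plus strand at chr14:55578244-55578543, Parp11 (an ADP-ribosyltransferase) on the plus strand at chr6:127446590-127446889, and Trim12c (a TRIM family protein) on the minus strand at chr7:104353300-104353599.
Adar: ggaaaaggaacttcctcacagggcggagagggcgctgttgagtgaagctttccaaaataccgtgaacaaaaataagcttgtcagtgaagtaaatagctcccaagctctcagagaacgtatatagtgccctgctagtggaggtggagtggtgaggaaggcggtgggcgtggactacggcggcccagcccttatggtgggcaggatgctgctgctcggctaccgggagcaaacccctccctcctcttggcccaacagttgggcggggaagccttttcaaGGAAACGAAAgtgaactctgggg
Ddx60: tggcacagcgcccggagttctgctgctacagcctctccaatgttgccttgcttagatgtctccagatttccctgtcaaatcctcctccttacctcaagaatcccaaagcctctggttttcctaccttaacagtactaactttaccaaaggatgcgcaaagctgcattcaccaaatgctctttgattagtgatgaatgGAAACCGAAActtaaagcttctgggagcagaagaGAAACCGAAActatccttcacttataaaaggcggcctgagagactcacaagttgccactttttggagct
Gbp7: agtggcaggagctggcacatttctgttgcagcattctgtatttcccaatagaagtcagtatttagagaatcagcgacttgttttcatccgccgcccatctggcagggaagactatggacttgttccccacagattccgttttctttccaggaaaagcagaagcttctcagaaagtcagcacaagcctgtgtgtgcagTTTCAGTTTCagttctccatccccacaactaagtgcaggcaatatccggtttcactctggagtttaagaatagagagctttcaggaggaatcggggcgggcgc
Psme1: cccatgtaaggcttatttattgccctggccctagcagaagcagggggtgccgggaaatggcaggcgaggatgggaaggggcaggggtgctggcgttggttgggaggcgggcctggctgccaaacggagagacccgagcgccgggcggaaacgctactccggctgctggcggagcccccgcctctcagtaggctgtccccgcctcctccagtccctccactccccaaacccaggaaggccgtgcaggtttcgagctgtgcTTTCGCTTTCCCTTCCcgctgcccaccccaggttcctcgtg
Parp11: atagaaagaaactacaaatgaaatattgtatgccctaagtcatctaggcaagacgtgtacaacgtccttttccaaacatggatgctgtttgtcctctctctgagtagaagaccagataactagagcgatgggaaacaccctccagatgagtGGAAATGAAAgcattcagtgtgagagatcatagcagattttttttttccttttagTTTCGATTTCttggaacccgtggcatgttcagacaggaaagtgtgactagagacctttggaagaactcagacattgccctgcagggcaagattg
Trim12c: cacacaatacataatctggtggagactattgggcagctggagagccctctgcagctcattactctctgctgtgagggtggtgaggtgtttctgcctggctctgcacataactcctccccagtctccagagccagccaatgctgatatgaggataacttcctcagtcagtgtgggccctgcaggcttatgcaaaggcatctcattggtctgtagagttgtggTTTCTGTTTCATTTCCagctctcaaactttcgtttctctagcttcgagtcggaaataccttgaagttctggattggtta

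At these 6 promoters the region was called in both WT libraries and in neither IRF8KO library among the widest regions. The lost region covered 860 and 992 bases in the WT libraries at Adar, 767 and 1079 at Ddx60, 786 and 1499 at Gbp7, 933 and 768 at Psme1, 892 and 1627 at Parp11, and 648 and 635 at Trim12c. At Gbp7, Psme1 and Parp11 the IRF8KO libraries had no call of any width. At Adar, Ddx60 and Trim12c at least 1 IRF8KO library had a call that was not among the 15000 taken. Cyp4v3, Rnf10 and Wipf1 were the other 3 of the 9 lost promoter windows with a motif and a peak.

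The motifs were not more frequent in lost promoters than elsewhere by more than the counting error. Windows were classed by the merged regions within 1 kb of the start. Of 20085 promoter windows of 16457 genes, 485 were lost windows, and either motif occurred in 30 of them (6.19%, 95% Wilson interval from 4.37%). The share was 4.95% of 4602 windows with a shared region, 7.32% of 41 with a gained region and 5.75% of all windows. A cDC1 IRF8 peak lay on 6.39% of lost, 5.19% of shared and 9.76% of gained windows, the last being 4 windows, against 2.85% of all windows. A match shows letters in a window and nothing about binding.

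The libraries differed in ways that bear on every count below. Total tags, in M (mega-tags), were 2.001 and 3.65 in WT and 1.26 and 1.47 in IRF8KO, and 15.03% to 23.7% of tags lay in called regions. Depth therefore moved with genotype, and its part in the results was not tested. In all 4 libraries the 15000th region had the smallest width called, 501 bases, so regions of that width were taken in a random order: 3240 and 3115 in WT, 7056 and 6433 in IRF8KO. The taken regions covered 18.5 and 18.3 Mb in WT and 13.3 and 13.9 Mb in IRF8KO. The IRF8KO libraries overlapped each other less (44.0% of the regions of the first) than they overlapped WT (50.8% to 53.6%), while 63.7% of the regions of the first WT library overlapped the second. Regions without a call of any width in the other genotype were counted apart for this reason: 727 of the lost (55.7%) and 112 of the gained regions (62.2%). The excess of lost over gained regions also rests on asking for 2 libraries in each genotype, since a group of 1 library passes more easily. With the first or second IRF8KO library left out, 2358 or 2518 regions were lost and 6316 or 6574 gained. With the first or second WT library left out, 6002 or 5675 were lost and 485 or 399 gained. With regions of the smallest width left out, 1542 were lost and 58 gained. The sort was checked on 9 LMPP markers, of which 9, 8, 9 and 8 were covered in the 4 libraries, WT first. Their summed level was 88.5, 83.2, 70.6 and 84.3 scaled kb (covered bases scaled to equal total length). Flt3, which encodes CD135, had 23, 20.04, 23.6 and 18.0 scaled kb. Kit, which encodes CD117, had 5.12 and 4.16 scaled kb in WT and 1.66 and 2.38 in IRF8KO, without overlap, a difference that did not pass (log2 -0.91 ± 0.25, limma adjusted p = 0.0641). Of 14 markers of other cells, 1, 3, 0 and 3 were covered, with sums of 2.74, 4.98, 0 and 2.98 scaled kb. These levels come from regions merged over 14 libraries, where a region can be given to another gene. Clec9a, 1 of the 14 markers, was at 0 there in all 4 libraries. In the merge of 4 libraries a lost region was given to Clec9a, over 1546 and 501 bases in WT. Both IRF8KO libraries had a call there that was not among the 15000 taken. Gata1 could not be covered, since it lies on the X chromosome, and Elane, Cd3e and Ms4a2 were listed at 0 in all 14 H3K27ac libraries, so their 0 does not tell the sorted cells from others.

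**Figure D1:**
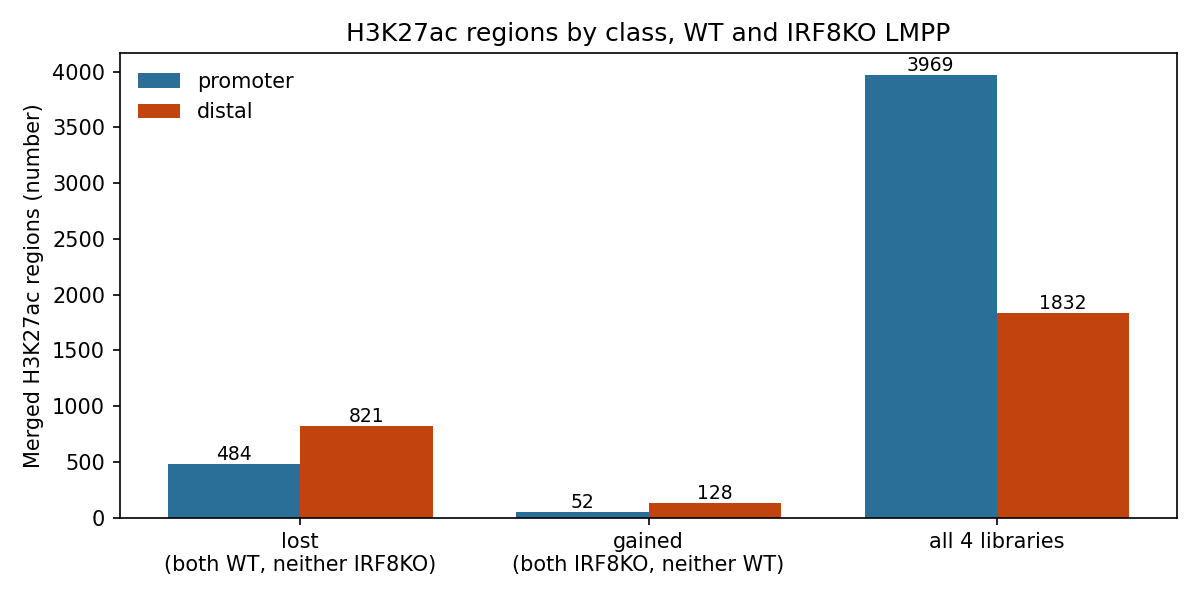
Number of merged H3K27ac regions (vertical axis) that were lost, gained or called in all 4 LMPP libraries, split into promoter regions (within 1 kb of a start) and distal regions. Lost regions were mostly distal (821 of 1305) and shared regions mostly promoters (3969 of 5801).

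Lost regions were mainly distal. A region within 1 kb of the start of a protein-coding gene was a promoter region, and 484 lost regions were such (37.1%, interval 34.5% to 39.7%), against 3969 shared regions (68.4%, 67.2% to 69.6%). Of the gained regions 52 were promoters (28.9%, 22.8% to 35.9%). The share of promoters among lost and shared regions differed by more than the counting error, which does not include the spread between libraries. Lost regions were narrower than shared ones, with a median merged width of 1185 against 1989 bases, and gained regions were narrower still, at 842.5 bases. No call of any width was found in IRF8KO for 497 lost distal regions (60.5%) and 230 lost promoter regions (47.5%).

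The share of WT regions that were lost fell steeply with their width, and at each width below 4 kb it was higher for distal regions than for promoters. Of the 9378 regions called in both WT libraries, 8.66% of 5591 promoter regions and 21.7% of 3787 distal regions were lost. Where WT covered under 1 kb on average, 20.1% of promoter regions (18.2% to 22.2%) and 44.2% of distal regions (41.2% to 47.2%) were lost. From 1 to 2 kb these shares were 5.79% (4.99% to 6.70%) and 17.9% (16.2% to 19.8%), and from 2 to 4 kb 0.199% and 2.56%. None of 244 regions of 4 kb and over was lost, which allows a share of up to 1.23%. In the other direction, 180 of the 6492 regions called in both IRF8KO libraries were gained (2.77%). Gained regions were 13.7% of distal and 3.01% of promoter regions under 1 kb, and no region of 2 kb and over was gained. The order of distal over promoter regions thus held in both directions.

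**Figure D2:**
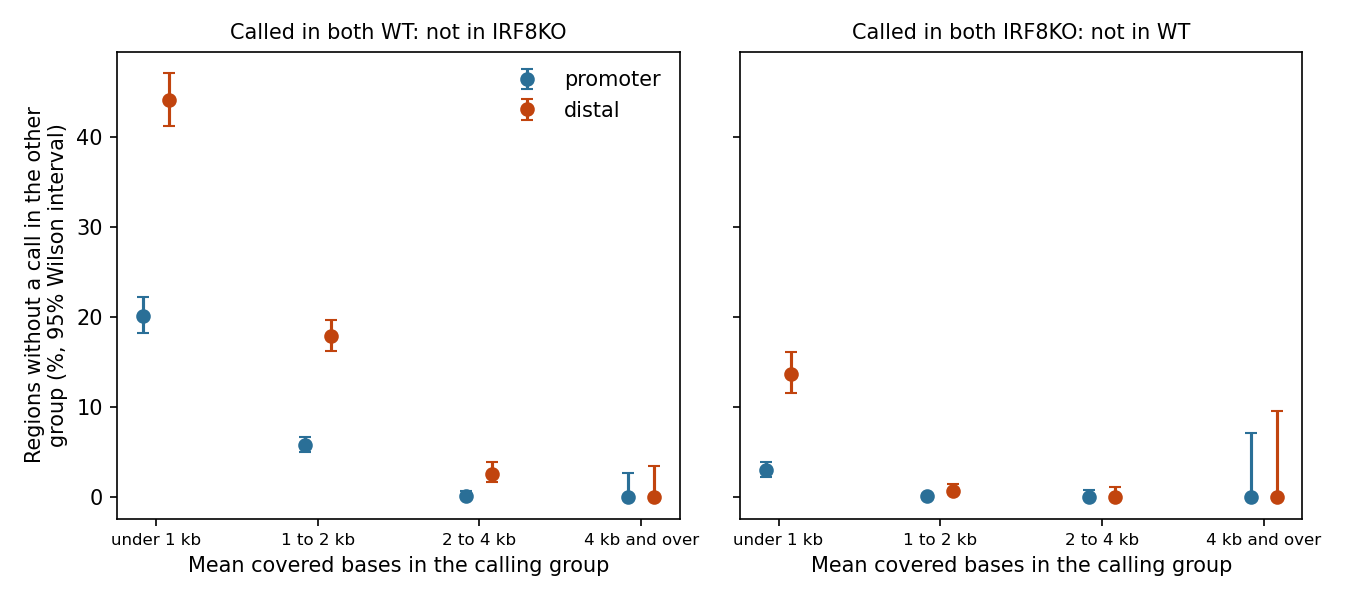
Share of regions (%, with 95% Wilson intervals) called in both libraries of one genotype and in neither of the other, by the mean covered bases in the calling genotype, for promoter and distal regions. The share fell with width in both panels and was higher in WT (left, up to 44.2%) than in IRF8KO (right, up to 13.7%).

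The targeted gene, Irf8 (chr8:120736358-120756694), gave no check of the labels by itself, since an inactive protein need not change acetylation of its own gene. A lost region lay at the +56 kb enhancer of Irf8 (chr8:120792300-120793745), called over 809 and 642 bases in WT and not at all in IRF8KO. The 2 WT calls shared 5 bases. This region held a monocyte CEBPA peak called in both libraries, CEBPA being a myeloid transcription factor. A region at -68 kb was called in all 4 libraries, with 1427 and 968 bases in WT and 1388 and 1121 in IRF8KO. Summed over the regions given to Irf8, the levels were 2.90 and 1.95 scaled kb in WT and 4.14 and 0 in IRF8KO, so the genotypes overlapped. In the first IRF8KO library every call around Irf8 except that at -68 kb was 501 bases wide, the width taken in random order. The log2 difference was -0.58 ± 0.66 (standard error; limma, Benjamini-Hochberg adjusted p = 0.692).

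**Figure D3:**
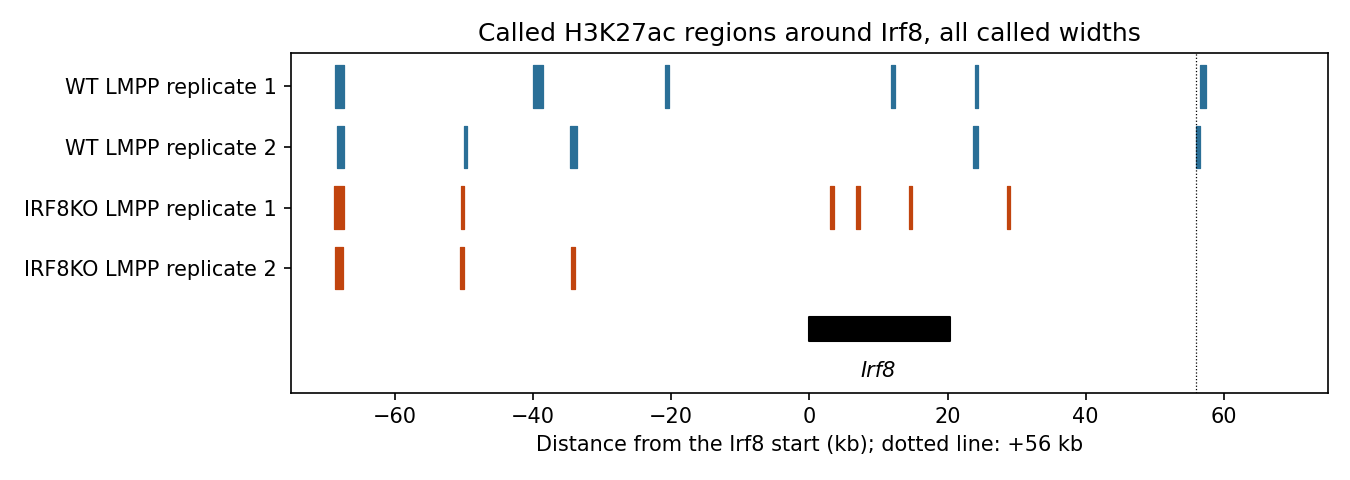
Called H3K27ac regions of each LMPP library (bars, 1 row per library) by distance from the Irf8 start in kb, with the gene as a black bar. Both WT rows and neither IRF8KO row have a bar at +56 kb (dotted line), and all 4 have one at -68 kb.

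Ranked by mean covered bases in WT, the first lost distal region lay 78023 bases from the start of Zfp217, which encodes a zinc finger repressor, and covered 4753 and 1544 bases in the WT libraries. Both IRF8KO libraries had a call there that was not among the 15000 taken. The next lay by Crim1 (3015 and 3056 bases), and the IRF8KO libraries had no call there. Among the 10 widest were also regions by St8sia1, a sialyltransferase of ganglioside synthesis (2894 and 2382 bases), by Kif23, a kinesin of cell division (2312 and 2525), and by Plcg2, a phospholipase of immune receptor signalling (3991 and 627). Acot7, Ric1, Ergic2 and St3gal4 were nearest to 4 of the remaining regions, and 1 had no gene start within 100 kb. At St8sia1, Ric1 and Plcg2 the first IRF8KO library had a call that was not taken. Both IRF8KO libraries had such a call at Kif23, at Ergic2 and at the region without a gene start. At Acot7 and St3gal4 they had no call. By the same measure the 5 widest lost promoter regions belonged to Ltb, Acadl, Tarbp2, Icam2 and H2-Aa. At Ltb, which encodes the cytokine lymphotoxin beta, the region covered 2085 and 2879 bases in WT and was not called at any width in IRF8KO. At Icam2, an adhesion molecule, it covered 2143 and 1611 bases. At H2-Aa, the alpha chain of an MHC class II molecule, it covered 2197 and 1517 bases. At Acadl, Tarbp2, Icam2 and H2-Aa at least 1 IRF8KO library had a call that was not taken.

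Gained regions were fewer and narrower. Ranked by mean covered bases in IRF8KO, the first distal one lay 74885 bases from Specc1l, over 1093 and 1664 bases in IRF8KO. Gained distal regions near regulators lay by Runx3, a transcription factor of lymphoid and dendritic lineages (947 and 969 bases, no WT call), and by Id2, an inhibitor of E proteins (1222 and 690 bases, with WT calls that were not taken). Sorl1, a sorting receptor, and Akap6, an anchoring protein, each had 1 with no WT call of any width (791 and 1428, and 1388 and 645 bases). The 5 widest gained promoter regions belonged to Gadd45a, a stress-response gene (1130 and 1654 bases), S100a3, Cast, Fam76a and Ppp1r9a. At each of these 5, 1 or both WT libraries had a call that was not taken. Runx3 also had 2 lost regions, so calls moved both ways at that gene.

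Each region was given to the gene with the nearest start within 100 kb. Of 12326 genes with a region, 1107 had a lost region (8.98%) and 158 a gained region (1.28%). More than 1 lost region was found at 76 genes, which held 168 lost regions (12.9% of all). The number was 37 when only lost regions without any IRF8KO call were counted. Of the 76 genes, 53 also had a shared region, 33 had a lost region with a cDC1 IRF8 peak and 25 had a lost promoter. Prim2 was the single gene with 2 gained regions. At least 3 lost regions were found at 12 genes, and at 2 genes when only lost regions without any IRF8KO call were counted. Zfp217 and Atp10a had 5 lost regions each, of which 1 and 2 had no IRF8KO call.

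At the genes with several lost regions, the total coverage was compared in a fit of all 14 H3K27ac libraries. Their 7 groups were cells of WT, d+56kb or IRF8KO mice. The fit shares the calls that define the classes and so adds a size and a spread, not separate evidence. Map3k14 encodes NIK, the kinase of the noncanonical NF-kB pathway. All 3 of its lost regions, 1 at the promoter, had no IRF8KO call of any width, and they covered 1404 and 1222, 1190 and 800, and 650 and 634 bases in WT. Its level was 9.98 and 8.48 scaled kb in WT and 2.07 and 2.60 in IRF8KO, without overlap (log2 difference -1.62 ± 0.14, limma adjusted p = 0.00146). Zfp217 had 26.5 and 21.9 scaled kb in WT and 9.15 and 12.0 in IRF8KO (-1.13 ± 0.14, adjusted p = 0.0032). Fos, a subunit of the AP-1 factor, had 15.4 and 13.4 against 6.83 and 6.67 scaled kb (-0.99 ± 0.11, adjusted p = 0.00278), and 2 of its 3 lost regions held a cDC1 IRF8 peak. Plac8, expressed in myeloid and lymphoid progenitors, had 5.88 and 4.68 against 1.59 and 0 scaled kb (-1.96 ± 0.36, adjusted p = 0.0102). Its call was lost without the first WT library. Nr1d1, a nuclear receptor of the circadian clock, had 2.66 and 3.11 scaled kb in WT and was listed at 0 in both IRF8KO libraries. Atp10a and Rreb1 also fell, each losing its call when 1 WT library was left out (either one for Atp10a, the second for Rreb1). Ccnd2, a cyclin of the G1 phase, had 12.5 and 9.56 against 6.85 and 3.85 scaled kb, and its difference of -0.95 ± 0.29 did not pass (adjusted p = 0.0911). Max, Ppp2r5c and Wipf1 did not pass either.

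**Figure D4:**
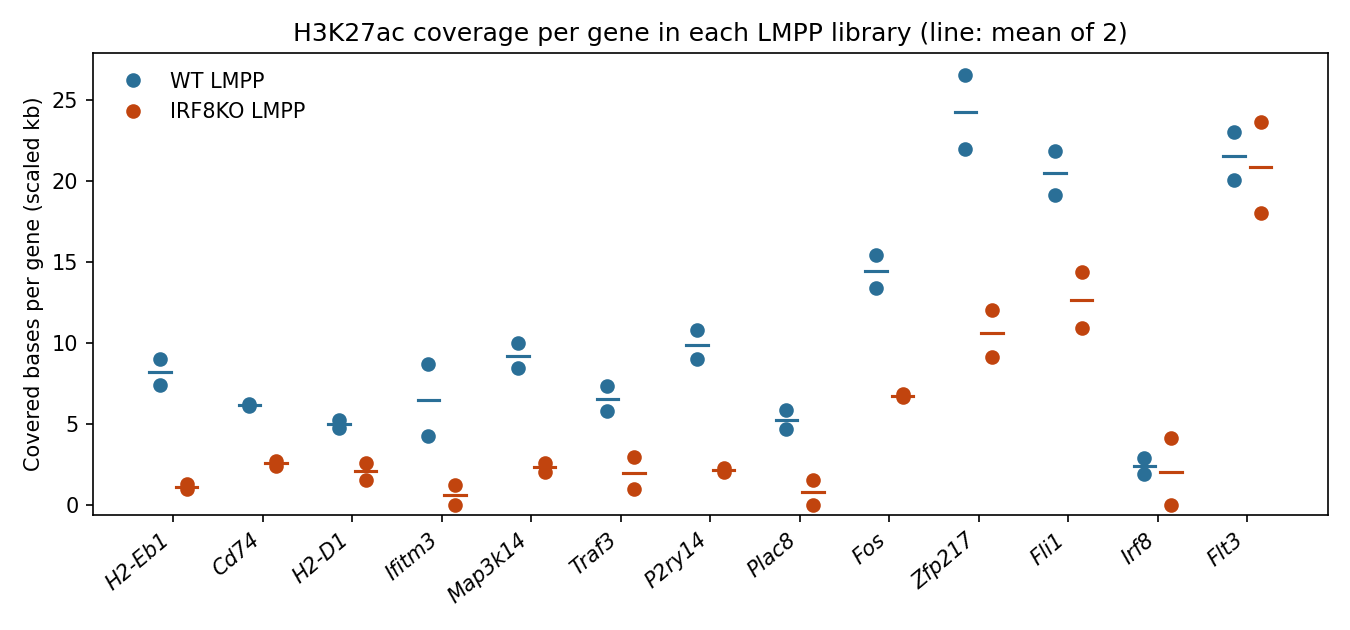
Covered bases per gene in scaled kb (vertical axis) in each LMPP library (points, WT and IRF8KO) with the mean of 2 libraries (lines). The genotypes do not overlap from H2-Eb1 to Fli1, which are all called genes, and they overlap at Irf8 and Flt3. They overlapped at no called gene, and did not overlap at 3573 of the 11775 genes tested.

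Over all genes, 756 of 11775 changed at an adjusted p under 0.05 (6.42%): 302 were higher (2.56%) and 454 lower (3.86%) in IRF8KO. The genotypes did not overlap at 3573 of the 11775 genes, among them all 302 higher and all 454 lower ones. Without scaling to equal covered length, 164 were higher and 446 lower, and the median of all genes moved from 0 to -0.16. A fit of the 4 LMPP libraries alone called none (limma; 1101 at an unadjusted p under 0.05), so every call of the gene fit rests on the spread shared by 7 groups. Of the 454 lower genes 296 had a lost region, and 269 were listed at 0 in both IRF8KO libraries. Of the 302 higher genes 35 had a gained region, and 231 were listed at 0 in both WT libraries. The higher genes were long, with a median span of 58.8 kb against 22.0 kb for the lower and 25.3 kb for all genes. Of the calls behind the higher genes, 76.3% and 71.9% in the IRF8KO libraries had the smallest width, against 38.2% and 34.2% over all genes tested. The part of these values in the higher calls was not tested.

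Genes of antigen presentation were among the lower genes. H2-Eb1, the beta chain of an MHC class II molecule, had 7.45 and 9.03 scaled kb in WT and 1.32 and 0.994 in IRF8KO (log2 difference -2.10 ± 0.16, limma adjusted p = 0.000972). This value comes from 1 region merged over 14 libraries, which takes in the lost promoter and the shared distal region given to H2-Aa in the merge of 4 libraries. Cd74, the invariant chain that escorts class II molecules, had 6.22 and 6.13 against 2.44 and 2.73 scaled kb (-1.004 ± 0.24, adjusted p = 0.0355). Its genotypes did not overlap, yet the call was lost when any 1 of the 4 libraries was left out. These 2 were the calls among 15 tested genes of the pan-dendritic cell and MHC class II list (3.86% of all genes tested were lower), which had a median log2 difference of -0.31 against 0 over all genes. H2-Ab1 had 2.12 and 0.752 scaled kb in WT, was listed at 0 in IRF8KO and did not pass (adjusted p = 0.0716). H2-Aa had no value of its own in this fit. Of 13 genes of MHC class I presentation, 2 fell and the median was -0.60. Nlrc5, the transactivator of class I genes, lay the other way, listed at 0 in both WT libraries with 1.33 and 1.99 scaled kb in IRF8KO, and did not pass (log2 difference 1.40 ± 0.38, limma adjusted p = 0.0608). H2-D1, a class I heavy chain, had 4.76 and 5.29 against 2.62 and 1.56 scaled kb (-0.98 ± 0.17, adjusted p = 0.00844). Tap2, a subunit of the peptide transporter, had 4.85 and 4.23 against 2.62 and 1.80 scaled kb (-0.80 ± 0.20, adjusted p = 0.0439), and its call was lost without either WT library or the second IRF8KO library. Psmb9, an immunoproteasome subunit, had 4.71 and 5.99 against 3.28 and 2.91 scaled kb and did not pass (adjusted p = 0.0552).

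No gene of the interferon list passed in 20 tested, with a median log2 difference of -0.22, and 3 of its 20 members with a region had a lost one (8.98% of all genes with a region): Irf1, Isg15 and Usp18. The genes of the promoters printed above were chosen on the same calls, so their levels are a description. Adar had 2.02 and 1.49 scaled kb in WT, Gbp7 1.17 and 2.25, and Psme1 1.39 and 1.15, and all 3 were listed at 0 in both IRF8KO libraries. Levels of Ddx60, Parp11 and Trim12c are not given here, so these values do not describe all the printed promoters. Ifitm3, an interferon-induced membrane protein that restricts viral entry, had 4.25 and 8.71 scaled kb in WT and 0 and 1.26 in IRF8KO (-2.25 ± 0.43, limma adjusted p = 0.0125). Its call was lost without the second WT library. The Ifitm3 promoter window held the interferon motif and no cDC1 IRF8 peak.

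Of the other myeloid and lineage genes few passed. Over all genes 2.56% were higher, 3.86% were lower, and 8.98% of those with a region had a lost one, beside which the counts here stand. In the monocyte and macrophage list 2 of 21 fell. Csf1r, the receptor for the growth factor M-CSF, had 2.74 and 3.48 scaled kb in WT and 0 and 0.994 in IRF8KO (-1.54 ± 0.30, limma adjusted p = 0.0143, lost without the second WT library). Itgam, the integrin CD11b, had 2.84 and 1.42 scaled kb and was listed at 0 in IRF8KO (adjusted p = 0.00391). None of 19 neutrophil genes passed, at a median of 0, and 1 of 16 with a region had a lost one. None of 21 stem and multipotent progenitor genes passed. Of 29 lineage transcription factors 1 fell, Fli1, an ETS factor of blood formation, with 21.8 and 19.1 against 14.4 and 10.9 scaled kb (-0.66 ± 0.13, adjusted p = 0.0116, lost without the first WT library). Lost regions lay at 8 of 27 lineage factors with a region: Bach2, Etv6, Fli1, Ikzf1, Ikzf2, Irf8, Mef2c and Runx3. Ikzf1, which encodes Ikaros, had 2 of them (501 and 933, and 903 and 789 bases in WT), yet its level was 14.1 and 13.97 against 11.7 and 16.7 scaled kb. Lymphoid priming genes had lost regions at 7 of 19, and 1 of 18 tested rose, Bcl11b. Of the cDC1 list 1 of 18 rose (Cadm1), and lost regions lay at Clec9a and Irf8. At Clec9a both IRF8KO libraries had a call that was not taken. Of plasmacytoid, B cell and housekeeping genes (8, 5 and 12 tested) none passed. In the T and NK, erythroid, and mast cell lists 1 gene each rose of 10, 11 and 6 tested: Bcl11b again, Hbb-bt and Mitf. These 4 higher genes were listed at 0 in WT and rested on little coverage, with 1.04 and 0.994 scaled kb in the IRF8KO libraries at Bcl11b and Hbb-bt and 1.04 and 1.99 at Mitf and Cadm1. The calls of Mitf, Hbb-bt and Cadm1 were lost without scaling and without regions of the smallest width, and that of Mitf also without either WT library. Each IRF8KO value of Bcl11b matched 1 region of the smallest width, and every other library was listed at 0. Without such regions Bcl11b therefore had no coverage to test. With all autosomal regions the calls of Bcl11b, Hbb-bt and Mitf were lost.

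The lower genes with the largest differences were led by Dcaf5, a substrate receptor of a ubiquitin ligase, with 4.03 and 3.75 scaled kb in WT and 0 in both IRF8KO libraries (limma adjusted p = 0.0028). Ppp1r3b, Cds2 and Doc2b were likewise listed at 0 in both. Chd3, a chromatin remodeller, had 5.37 and 5.58 against 0 and 0.994 scaled kb, and Cd52, a leukocyte surface protein, 5.57 and 4.92 against 0 and 0.994. Lst1, a leukocyte-specific transcript, had 8.28 and 9.37 against 0 and 3.71 scaled kb, and its call was lost without either WT library. Cramp1l, Cotl1 and Abhd15 completed the 12, Abhd15 losing its call without either WT library. Of the 12 highest genes, Grm5, Mrtfb, Akap6, Nol4, Gadd45a, Ppp2r2b and Btbd11 were listed at 0 in both WT libraries. Gadd45a had 3.37 and 3.28 scaled kb in IRF8KO, and Grm5, a glutamate receptor, 3.67 and 4.23. Ptprd, a receptor phosphatase, had 0.744 and 0.752 in WT against 7.25 and 5.96 (adjusted p = 0.00391). Auts2, Galnt18, Sh3rf1 and Tmem132d were the others. Leaving out 1 library ended the call of Auts2 (either WT or the first IRF8KO library), Sh3rf1 (the same 3) and Mrtfb (either WT or the second IRF8KO library). With all autosomal regions in place of the widest, the calls of Ptprd, Akap6, Auts2, Galnt18, Doc2b and Lst1 were lost. That of Ptprd was also lost with a pseudocount of 100 bases, and its IRF8KO values match sets of regions of the smallest width.

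Among the 5801 shared regions the covered width did not pass the test at any region. The fit used the 4 libraries alone, after centring each on its median, and called 0 regions (0.0%; 478 at an unadjusted p under 0.05, of which 307 were narrower in IRF8KO; smallest limma adjusted p = 0.407). The median covered width was 1608 and 1598 bases in WT and 1187 and 1260 in IRF8KO. Distal shared regions were narrower in IRF8KO by a median log2 of -0.47 before centring, and promoters by -0.31. The regions with the largest narrowing, none past the threshold, lay by H2-Aa (2816 and 4494 bases in WT, 640 and 501 in IRF8KO), Suco (3275 and 4721 against 649 and 638), P2ry14 (4559 and 4680 against 501 and 1175), Traf3 (2699 and 3305 against 501 in both) and Esr1. The largest widening lay by Lrp1 (888 and 778 against 2387 and 1472), Puf60, Ctnna3, Pde4d and Oxtr. In the gene fit, which holds the same regions, 3 of the narrowed genes were lower. P2ry14, a receptor for UDP sugars, had 10.8 and 8.99 against 2.07 and 2.33 scaled kb (limma adjusted p = 0.00248). Suco had 9.26 and 9.48 against 3.18 and 4.10 scaled kb (adjusted p = 0.00199). Traf3, which keeps NIK levels low, had 5.80 and 7.34 against 3.01 and 0.994 scaled kb (adjusted p = 0.0171, lost without the second WT library).

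IRF8 binding was not measured in LMPP here, so peaks from splenic cDC1 (18971 in both libraries) and marrow monocytes (4126 in both) were set against the classes. Wide regions meet more peaks by length alone, and shares were therefore read within width classes of the merged region. Of the lost distal regions 23.1% (20.4% to 26.1%) held a cDC1 IRF8 peak, of the gained 10.9% (6.63% to 17.5%) and of the shared 29.9% (27.8% to 32.0%). By width, the lost share was 24.5% under 1 kb, 22.4% from 1 to 2 kb (19.0% to 26.3%) and 24.1% from 2 to 4 kb. The shared regions had 14.3% (3 of 21), 24.8% (21.6% to 28.3%) and 30.8%, rising to 42.1% at 4 kb and over. Lost and shared distal regions of the same width thus overlapped in their intervals. The gained share was 12.4% under 1 kb (7.04% to 20.8%) and 8.11% from 1 to 2 kb (2.80% to 21.3%). Promoter regions held a peak in 12.4% of lost, 9.62% of gained and 15.9% of shared regions over all widths. Within width classes the order of lost and shared promoters was the opposite: 8.92% against 5.46% under 1 kb, 14.5% (10.6% to 19.4%) against 11.01% (9.74% to 12.4%) from 1 to 2 kb, and 22.7% against 19.9% from 2 to 4 kb. The intervals overlapped in each class. Of lost promoters from 1 to 2 kb without any IRF8KO call, 20% of 105 held a peak (13.5% to 28.6%), above the interval of shared promoters of that width. Under 1 kb the share without any IRF8KO call was 6.96% (3.57% to 13.1%). From 2 to 4 kb it was 1 of 10 (1.79% to 40.4%), below the 19.9% of shared promoters. Monocyte IRF8 peaks lay in 7.92% of lost, 2.34% of gained and 10.2% of shared distal regions.

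**Figure D5:**
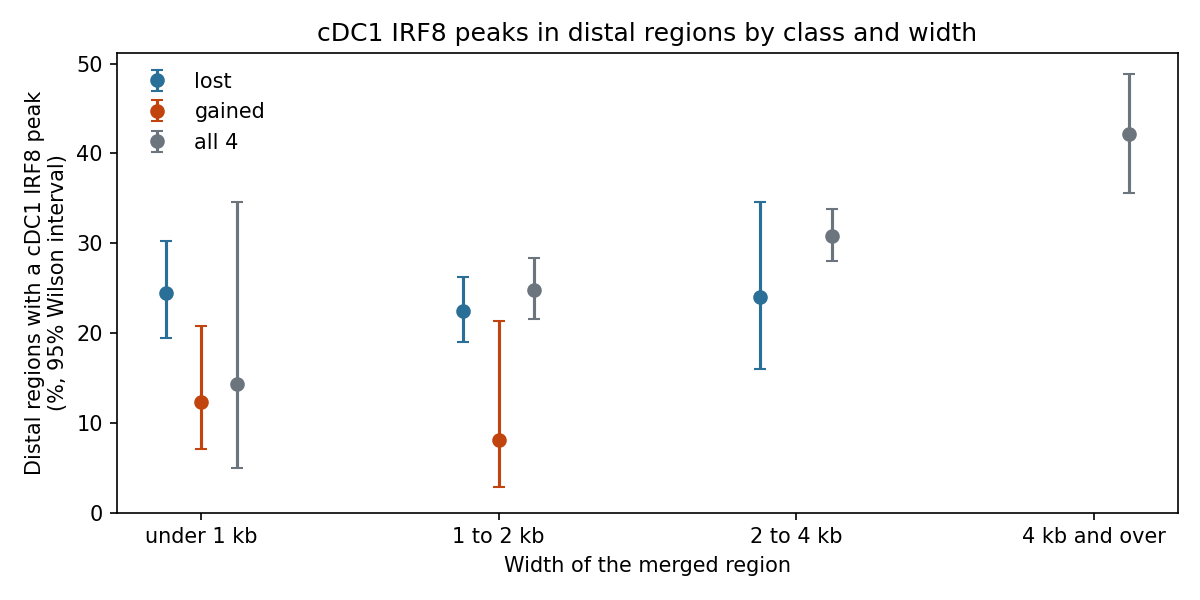
Share of distal regions with a cDC1 IRF8 peak (%, 95% Wilson intervals) by width of the merged region, for lost, gained and shared (all 4) regions; classes with fewer than 10 regions are not drawn. The lost share stayed between 22.4% and 24.5%, and the shared share rose to 42.1%.

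Read from the WT side, the share lost was set apart for regions with and without a cDC1 IRF8 peak. Over promoter and distal regions together, 41.3% with a peak (36.3% to 46.5%) and 28.2% without (26.4% to 30.1%) were lost where WT covered under 1 kb, and 11.6% and 10.2% from 1 to 2 kb. Under 1 kb, 222 of 351 regions with a peak and 851 of 2286 without were distal, and within promoter or distal regions the intervals overlapped at every width. Of distal regions called in both WT libraries, 19.3% of 987 with a cDC1 IRF8 peak and 22.5% of 2800 without one were lost. Where WT covered under 1 kb, the shares were 51.4% with a peak (44.8% to 57.9%) and 42.3% without (39.0% to 45.7%), and from 1 to 2 kb they were 15.2% (12.2% to 18.7%) and 18.9% (16.9% to 21.0%), in the opposite order. At promoters under 1 kb they were 24.0% and 19.8%, again with overlapping intervals. From the IRF8KO side, distal regions under 1 kb were gained in 6.16% of 211 with a peak and 16.0% of 674 without, and these intervals did not overlap.

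Among the 484 lost promoter regions 60 held a cDC1 IRF8 peak, and 18 of these held a monocyte peak too. At 12 of the 18 no IRF8KO call of any width was found. The 18 include Casp1, the protease of the inflammasome (1070 and 1102 bases in WT), Trim56, a ubiquitin ligase (839 and 1577), H2-Q6 and H2-Q7, nonclassical MHC class I genes (628 and 501, and 647 and 628), and Parp14, an ADP-ribosyltransferase (501 and 774). H2-Q6 and H2-Q7 are near-identical neighbours, so their reads may not be told apart. These genes were named after their values were seen. Of the 821 lost distal regions 61 held peaks of both cell types.

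The lost regions were then looked up in groups that the rule did not use, again among the 15000 widest regions of each library. The narrowest region taken there had 630 to 1317 bases against 501 in the 4 LMPP libraries, so a region with a narrow call was not counted. One such is the +56 kb region of Irf8, called in both LSK libraries and taken in 1. Both libraries of LMPP from mice without the +56 kb Irf8 enhancer (d+56kb) had a region taken at 74.3% of lost regions (71.8% to 76.6%), 34.4% of gained regions (27.9% to 41.7%) and 97.8% of shared regions. In WT lineage-negative, Sca-1+, CD117+ (LSK) cells, the wider marrow progenitor pool, the shares were 77.8%, 41.7% and 95.9%. Those libraries were deeper, at 8.30 and 7.19 M tags. In d+56kb granulocyte-monocyte and monocyte-dendritic progenitors, lost regions were called at 50.2% and 49.3%. In WT splenic cDC1 the shares were 39.4% of lost (36.8% to 42.1%), 20% of gained and 73.9% of shared regions. Lost promoters were called in cDC1 more often (58.1%) than lost distal regions (28.4%), and the same order held for shared promoters (87.0%) and distal regions (45.5%).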

How the data were processed

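H3K27ac was measured in 14 libraries, IRF8 and CEBPA binding in others. Per the submitters' processing notes, the tools were Bowtie 1.1.2 and HOMER 4.9 with mm10 (GRCm38). Per the file headers, the authors called H3K27ac regions per library against input in the histone style (peak size 500 bases, at least 4-fold over input), and IRF8 peaks in the factor style without input. The deposited start and end columns hold positions in bases (a unit of the kind other), and the deposited score column holds 1 value for every region, so width was the one quantity of a region. Total tags come from the file headers.

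Regions were merged and classed as in the report. Gene starts came from RefSeq (GRCm38.p6) for 79.6% of 20665 autosomal protein-coding genes; either end of the span (for promoters) or the span (for assignment) stood in for the rest. Per gene, covered bases of the 15000 widest regions, scaled to equal total length, were fitted as log2(bases + 1000) with limma 3.58.1 (R 4.3.3; lmFit, eBayes with trend and robust) over 14 libraries, for genes covered in at least 2, with Benjamini-Hochberg adjustment and a threshold of 0.05. Fold changes on this scale understate changes of low genes. The script was tested on simulated data. The 95% intervals of shares (Wilson) hold counting error alone, which PCR duplicates can understate. The call patterns of 2 against 2 libraries carry no test.

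The named genes were Irf8, the 12 highest and 12 lowest called genes whose genotypes did not overlap, genes of the 10 widest lost and gained distal and 5 widest promoter regions, those with most lost or gained regions, the 5 most widened and narrowed, and members of 15 gene lists. The members and lists were chosen with earlier results of these data known. Alternatives were another number of regions, tie order, joining, promoter window, pseudocount, filter, scaling, assignment distance, samples in the fit and libraries left out. The cDC1 CEBPA peaks and input samples were not used here.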

Additional observations from a re-analysis of the deposited data

How the results depend on the processing

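Lost regions stayed within 1.5 times the 1305 reported under 10000, 20000 or all regions per library, 2 other tie orders, the autosome filter applied last, joining within 1 kb, and leaving out regions of the smallest width (882 to 1620). They numbered 2224 where calls had to cover at least 0.5 of the merged region, which left 3080 shared regions, and 727 without any IRF8KO call. Gained regions, 180, became 296 with 20000 regions, 358 with all, 112 without any WT call and 58 without regions of the smallest width, a setting chosen after seeing the data. Leaving out 1 library gave 2358 to 6002 lost and 399 to 6574 gained regions, by construction, since 1 library then made up a group. Promoter shares within 2.5 kb were 40.5% of lost and 69.9% of shared regions. Peaks in either library gave 30.1% of lost and 42.0% of shared distal regions for cDC1 IRF8, and 11.7% and 16.3% for monocytes. With all regions, the cDC1 shares were 20% and 27.7%. In the gene fit, 756 calls (302 higher, 454 lower) became 0 (0 and 0) with the 4 LMPP libraries alone, which have 2 residual degrees of freedom of their own. Leaving out 1 library gave 682 to 1420 calls, 323 to 468 higher and 348 to 952 lower, the highest counts without an IRF8KO library (1246 and 1420), where the lone library is assumed to vary like the other groups. Higher calls numbered 164 unscaled and 464 with all regions; the cause was not tested. The replicate numbers did not pair the libraries: correlations of deviations lay between -0.0583 and 0.0263 over 21 pairs of groups, and a fit with the replicate block called 698 genes and 0 widths. All 44 called genes among the 50 named lost their call in the fit of 4 libraries. Of the called regions of the 4 libraries, 45.4% to 65.5% had the smallest width, and what depth limits was not tested.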

Other observations

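Peaks of the myeloid factor CEBPA in monocytes, 14871 in both libraries, were also set against the classes. They lay in 20.1% of lost (17.5% to 22.97%), 13.3% of gained (8.46% to 20.2%) and 31.9% of shared distal regions. Between 1 and 2 kb the shares over all regions were 21.1% of lost (18.3% to 24.2%) and 20.5% of shared regions (19.0% to 22.0%), so at that width their intervals overlapped. From 2 to 4 kb they were 27.7% (19.9% to 37.1%) and 34.6% (32.7% to 36.5%).

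Coverage over the whole gene need not follow a single region. Mef2c, a transcription factor of lymphoid priming, had a lost region of 501 bases in each WT library and no IRF8KO call there, while its level was 23.1 and 25.3 scaled kb in WT and 24.1 and 28.1 in IRF8KO. Notch1, a receptor for T lineage entry, had a lost region (766 and 1060 bases) and 7.91 and 11.1 against 4.12 and 7.02 scaled kb, which did not overlap and did not pass (limma adjusted p = 0.126). At Meis1, which encodes a homeobox protein, there was a gained region (501 and 1365 bases in IRF8KO), and its level was 15.5 and 12.6 against 14.8 and 20.9 scaled kb (adjusted p = 0.656).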
